A study of Mus musculus with 2 samples.

Results

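The genes described here build the basement membrane of the mouse lung or bind cells to it. They were chosen by name: every gene coding for protein whose symbol marks a laminin chain, an integrin alpha chain or one of the integrin beta chains 1 to 8, together with Nid1, Nid2, Hspg2, Agrn, Npnt, Fras1, Frem1, Frem2 and Dag1. This gave 46 of the 21474 genes coding for protein in the deposited tables, which hold 43346 gene rows in all. The rule uses names alone. The data are 2 total RNA-seq libraries of whole lung from B6NCrl mouse embryos on embryonic day 16.5, labelled as biological replicates 1 and 2 of 1 group of healthy embryos. Each pooled male and female embryos, 41 of them in replicate 2 and a number not given in the sources used here for replicate 1. There is no other genotype, treatment or age, so what follows gives levels, ratios of genes measured together and the distance between the pools. Because the tissue was not sorted, a low level can come from few cells or from little RNA per cell, and these cannot be told apart.

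A basement membrane is a thin sheet of matrix beneath epithelia and around vessels, muscle and nerves. Laminins, trimers of 1 alpha, 1 beta and 1 gamma chain, form a polymer on the cell surface, a network of type IV collagen forms another, and nidogens and perlecan connect them. Cells hold the sheet through integrins, receptors of 1 alpha and 1 beta chain, and through dystroglycan. In the developing lung, branching of the airway epithelium takes place on such a sheet.

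The members were measured in deep libraries, with 38852470 expected counts in replicate 1 and 27145411 in replicate 2, of which the 46 genes took 0.560% and 0.556%. An expected count is the authors' estimate of the reads of a gene. TPM is that count divided by the effective length and brought to an equal total per library, so that levels can be compared between genes. The lung label was met by the markers of its tissue: Nkx2-1, a transcription factor of lung epithelium, was at 77.0 and 62.6 TPM in replicates 1 and 2, Tcf21 of lung mesenchyme at 322 and 331 TPM, and the kidney genes Umod and Slc12a1 at or near 0. All 4 liver markers were more than 2-fold higher in replicate 2, summing to 47.1 TPM in the first pool and 399 TPM in the second. The skeletal muscle markers summed to 149 and 432 TPM and the T cell markers to 11.0 and 27.5 TPM.

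Most of these genes were expressed. At 1 TPM or more in both replicates 41 of the 46 were detected, or 89.1%, beside 61.5% of all genes coding for protein. At 10 TPM or more in both there were 23, or 50%, beside 40.3% of all such genes, and 7 exceeded 100 TPM: Itgb1, Nid1, Npnt, Lamb1, Dag1, Lamc1 and Lama4. Their median was 9.41 and 10.2 TPM, beside 4.71 and 5.02 TPM over all genes coding for protein. Just above 1 TPM lay the leukocyte chain Itgam, at 1.15 and 1.41 TPM, and just below it Itga10, a collagen receptor chain of cartilage, at 0.88 TPM in each. The 5 members that were not detected at this level were Itga10, Itga11, Itgae, Itgax and Itgad.

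**Figure D1:**
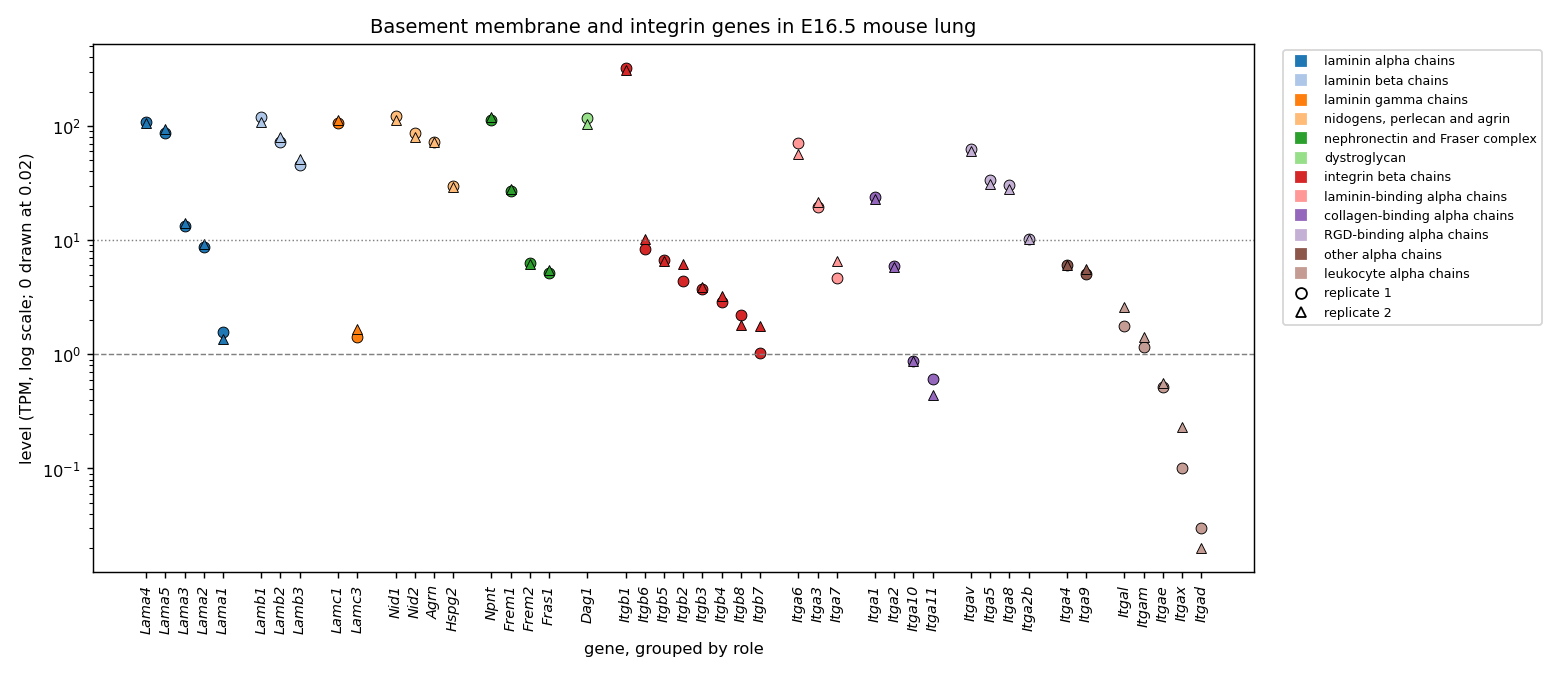
Level in TPM on a log axis of 45 of the genes, grouped by role, with circles for replicate 1 and triangles for replicate 2; the dashed line is at 1 TPM and the dotted line at 10 TPM. Itgb1 is the highest gene at 322 and 312 TPM, and Itgad, at 0.03 TPM in replicate 1 and 0 in replicate 2 (drawn at 0.02), is the lowest.

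The alpha and gamma classes of laminin each held chains near or above 100 TPM and others close to the detection limit. Lamc1, the gamma chain of most laminins (chromosome 1, 153218922 to 153332786, minus strand, build mm10), was at 105 and 113 TPM. Lamc3 was at 1.41 and 1.68 TPM. Lamc1 thus stood above Lamc3 by 6.15 ± 0.11 on the log2 scale (mean ± SD, n = 2, as for all values with ± below).

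Among the beta chains Lamb1, the partner in laminins of early tissue, was at 119 and 108 TPM. Lamb2, which is known from vessel, muscle and kidney basement membranes, was at 72.1 and 79.8 TPM. The ratio of Lamb1 to Lamb2 was 0.58 ± 0.20 on the log2 scale, with the same sign in both replicates although Lamb1 was lower and Lamb2 higher in replicate 2. Lamb3, the beta chain of the epithelial laminin, was at 45.8 and 50.9 TPM.

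The alpha chains ranged from over 100 TPM down to the detection limit. Lama4, the alpha chain of vessel and mesenchymal laminins, was at 109 and 106 TPM, and Lama5, an alpha chain of epithelial and vascular basement membranes, at 86.3 and 94.4 TPM. Lama3, the alpha chain of the epithelial laminin, was at 13.3 and 14.1 TPM, below its partner Lamb3 in both replicates. Lama2, known from muscle and nerve, was at 8.68 and 9.25 TPM, and Lama1, the alpha chain of the early embryo, at 1.57 and 1.35 TPM. Lama5 exceeded Lama1 by 5.95 ± 0.25 and Lama3 by 2.72 ± 0.03 on the log2 scale. Lama5 lay below Lama4 by a log2 ratio of -0.25 ± 0.12.

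The size of the Lama5 level depends on 3 short transcripts. Lama5-202, Lama5-203 and Lama5-204, annotated as processed transcripts of 451, 734 and 478 nt, took 75.0% of the TPM of the gene in replicate 1 and 74.7% in replicate 2. The coding transcript Lama5-201, of 11388 nt, took 89.1% and 89.4% of its expected counts but only about 25% and 25.3% of its TPM. Restricted to transcripts of at least 1000 nt, Lama5 over Lama4 was -1.72 ± 0.13 on the log2 scale, and with counts divided by the length of the longest coding transcript it was -1.51 ± 0.14. Lama5 over Lama1 was 3.96 ± 0.26 and 4.13 ± 0.26 by these measures, and Lama5 over Lama3 0.73 ± 0.05 and 1.23 ± 0.03. Lama5 therefore stayed below Lama4 under each of these 3 measures, by amounts that differ more than the replicates do. The summed alpha chains exceeded the summed gamma chains by 0.36 ± 0.04 on the log2 scale in TPM. They lay below them at -0.53 ± 0.06 with long transcripts and at -0.14 ± 0.03 per length of the longest coding transcript. The limit of 1000 nt leaves out short transcripts of Lama5 and Lama4 but keeps Lamc1-204, of 1447 nt, at 45.5 and 52.6 TPM. The summed beta chains exceeded the gamma chains under all 3 measures, by 0.46 ± 0.06 in TPM, 0.33 ± 0.08 and 0.65 ± 0.04.

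The linkers of the sheet were expressed well above the detection limit. Nid1, which ties laminin to type IV collagen (chromosome 13 of build mm10), was at 123 and 114 TPM, and its relative Nid2 at 86.1 and 80.2 TPM, so that Nid1 exceeded Nid2 by 0.51 ± 0.01 on the log2 scale. A stretch of 437 nt of the Nid2 exons, 8.45% of them, is shared with exons of Rtraf on the opposite strand, and Rtraf was at 164 and 153 TPM. Because no strand setting is given in the sources used here, reads of that stretch cannot be assigned to either gene with certainty.

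The heparan sulphate proteoglycans agrin and perlecan differed in level. Agrn was at 71.7 and 72.3 TPM and Hspg2, the perlecan gene, at 29.7 and 29.1 TPM, with a log2 ratio of Hspg2 over Agrn of -1.29 ± 0.03. Both levels contain transcripts that are not annotated as coding. Agrn-205, a retained intron transcript of 2071 nt, took 57.9% and 59.4% of Agrn TPM, and the coding transcript Agrn-206 took 38.1% and 36.7%. Hspg2-202, a processed transcript of 820 nt, took 47.6% and 48.6% of Hspg2 TPM from 4.44% and 4.61% of its expected counts. With transcripts of at least 1000 nt the log2 ratio of Hspg2 over Agrn was -2.22 ± 0.05. That limit leaves out Hspg2-202 but keeps Agrn-205. Per length of the longest coding transcript the ratio was -1.30 ± 0.03. For Agrn that transcript, Agrn-203 of 7262 nt, was listed at 0 TPM in both replicates.

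Npnt, the gene of nephronectin, was among the highest members. Nephronectin is a matrix protein that binds the integrin of Itga8 and Itgb1 and is known for its part in kidney development. Npnt (chromosome 3, minus strand) was at 113 and 119 TPM, and its receptor chain Itga8 at 30.7 and 27.9 TPM. The log2 ratio of Npnt over Itga8 was 1.99 ± 0.15, about 4 times, and was of the same size per length of the longest coding transcript, at 1.91 ± 0.15. Egfl6, a matrix gene of the same family, was at 82.4 and 103 TPM.

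The Fraser complex, which anchors epithelia to the underlying tissue in the embryo, had 1 high member and a pair of low ones. Frem1 was at 26.8 and 28.2 TPM. Frem2 was at 6.32 and 6.20 TPM and Fras1 at 5.13 and 5.46 TPM. Relative to Frem1, Fras1 was at -2.38 ± 0.01 and Frem2 at -2.13 ± 0.07 on the log2 scale. Grip1, the adaptor that brings these proteins to the cell surface, was at 1.49 and 1.64 TPM.

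Some matrix proteins are bound by integrins through the tripeptide arginine-glycine-aspartate, called RGD. The longest coding sequence of each of the 19 matrix members was searched in its reading frame, on the coding strand alone. These members are the 11 laminin chains, Nid1, Nid2, Hspg2, Agrn, Npnt, Fras1, Frem1 and Frem2. The search was for a codon CGN, AGA or AGG followed by GGN and then GAC or GAT, 48 combinations in all. The transcript searched need not be the longest one or a leading one. For Npnt it was Npnt-203, at 0 and 2.44 TPM. Matches were found in 11 of the 19, or 57.9%, with 12 matches in total. Of all 21901 genes with an annotated coding sequence 7.17% held a match, and of the 6035 with a coding sequence of at least 1827 nt, the shortest among the 19, 15.2% did. Per 100 kb of coding sequence there were 9.24 matches in the matrix members and 4.98 in all genes. A match describes the letters only. Matches of members above 10 TPM are printed with 18 bases on each side, the 9 bases of the match in capitals, read 5′ to 3′ on the coding strand from the GENCODE transcripts. Among those left out are Lama3, for which no sequence is given here, and Lama4, whose match spans the junction of exons 16 and 17. Fn1 and Egfl6 are shown beside them as RGD proteins outside the set.
Npnt: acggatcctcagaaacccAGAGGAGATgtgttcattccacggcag
Nid1: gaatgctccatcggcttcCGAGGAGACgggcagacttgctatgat
Nid2: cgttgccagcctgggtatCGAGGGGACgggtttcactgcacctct
Lama5 exon 39: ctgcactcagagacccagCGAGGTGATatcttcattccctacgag
Lama5 exon 41: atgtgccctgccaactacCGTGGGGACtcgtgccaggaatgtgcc
Hspg2: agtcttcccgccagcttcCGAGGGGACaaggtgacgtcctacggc
Frem1: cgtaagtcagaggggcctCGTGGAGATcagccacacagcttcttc
Egfl6: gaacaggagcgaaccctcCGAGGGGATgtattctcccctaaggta
Fn1: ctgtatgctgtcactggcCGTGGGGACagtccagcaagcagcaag

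In build mm10 the 9 bases lie at chr3:132904665-132904673 (minus strand) for Npnt, in exon 8 of the 12 exons of Npnt-202, its leading transcript. They lie at chr13:13483769-13483777 (plus strand, exon 9 of 20) for Nid1 and at chr14:19797256-19797264 (plus strand, exon 12 of 21) for Nid2. For Lama5 they lie at chr2:180190372-180190380 and chr2:180189342-180189350 (minus strand, of 79 exons). The match of Hspg2 is at chr4:137518798-137518806 (plus strand). Those of Frem1, Egfl6 and the one shown of Fn1 are at chr4:83013842-83013850, chrX:166538421-166538429 and chr1:71606746-71606754, all on the minus strand. Lamb1, Lamb2, Lamb3, Lamc1 and Agrn, which were all above 40 TPM, had no match in the transcript searched.

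Npnt was made as several coding transcripts. Npnt-202 took 58.4% and 60.2% of its TPM, Npnt-201 27.0% and 21.3% and Npnt-205 13.4% and 16.0%. Npnt-201 holds an exon of 51 nt that Npnt-202 lacks, at chr3:132931582-132931632 on the minus strand, a length that is a multiple of 3. Over the transcripts that span its place, those with the exon took 27.1% and 23.4% of TPM and those without it 72.9% and 76.6%. These transcripts differ elsewhere too, Npnt-201 being of 3601 nt and Npnt-202 of 4619 nt, so the shares need not rest on this exon. The exon is printed 5′ to 3′ on the coding strand because Npnt-201 holds it and Npnt-202 and Npnt-205 do not.
Npnt exon 3 of Npnt-201: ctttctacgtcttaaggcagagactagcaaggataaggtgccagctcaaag

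Dystroglycan, the laminin and agrin receptor that is linked inside the cell to dystrophin or utrophin, was expressed near the level of Lamb1. Dag1 was at 118 and 103 TPM, and relative to Itgb1 its log2 ratio was -1.52 ± 0.10. Of 12 genes of the dystrophin complex all 12 were detected, with a median of 11.3 and 10.9 TPM. They ranged from Sgca, a sarcoglycan of striated muscle, at 1.18 and 1.11 TPM, to Sgce, a sarcoglycan of many tissues, at 63.3 and 62.4 TPM. Dystroglycan binds laminin through a sugar chain, and 12 measured genes of the enzymes that build it were all detected, at a median of 18.6 and 18.3 TPM. The highest of them was Pomgnt1 at 47.2 and 49.5 TPM. In both lists 6 of 12 genes were higher in replicate 2 and none passed 2-fold.

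Among the integrin beta chains Itgb1, the shared partner of most matrix-binding alpha chains, took nearly the whole of the class. Itgb1 (chromosome 8, 128685654 to 128733200, plus strand) was at 322 and 312 TPM. Its transcript Itgb1-201 took 99.8% and 99.6% of that level. The next beta chain was Itgb6, an epithelial chain that pairs with Itgav, at 8.34 and 10.3 TPM, followed by Itgb5, another partner of Itgav, at 6.72 and 6.51 TPM. Itgb1 exceeded Itgb5 by 5.58 ± 0.00 on the log2 scale, and the beta 1 level was as high over long transcripts as over all.

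The other beta chains lay between 1 and 7 TPM. Itgb4, which with Itga6 forms the integrin of hemidesmosomes, was at 2.87 and 3.21 TPM, so its log2 ratio to Itgb1 was -6.71 ± 0.15, and Itga6 exceeded it by 4.40 ± 0.34. Itgb3, the beta chain of the platelet receptor, was at 3.76 and 3.88 TPM. Itgb8, which with Itgav activates latent TGF-beta, was at 2.19 and 1.79 TPM, below Itgb6 in both replicates. The leukocyte beta chains Itgb2 and Itgb7 were at 4.41 and 6.24 TPM and at 1.03 and 1.76 TPM.

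The summed level of the alpha chains that can pair with Itgb1 (Itga1 to Itga11 and Itgav) came close to that of Itgb1 itself, at 265 and 247 TPM. The log2 ratio of that sum to Itgb1 was -0.31 ± 0.04. With transcripts of at least 1000 nt it was -0.67 ± 0.06, and per length of the longest coding transcript -0.75 ± 0.06. Itgb1 was thus the higher side under each measure. Itgav also pairs with Itgb3, Itgb5, Itgb6 and Itgb8, and pairing of proteins was not measured.

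Of the laminin-binding alpha chains Itga6 was the highest, at 71.3 and 57.3 TPM. Itga3, a laminin receptor chain of epithelia, was at 19.6 and 21.5 TPM, and Itga7, which is known from muscle, at 4.69 and 6.59 TPM. The log2 ratio of Itga3 over Itga6 was -1.64 ± 0.32, and the chains moved in opposite directions between the replicates. Itga6 exceeded Itga7 by 3.52 ± 0.57.

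Both Itga6 and Itga3 have a penultimate exon whose inclusion sets the tail of the protein inside the cell. In Itga6-201 this is exon 25 of 26, of 130 nt, of which 105 nt are coding (chr2:71853534-71853638, plus strand). In Itga3-201 it is exon 25 of 26, of 142 nt, of which 108 nt are coding (chr11:95046483-95046590, minus strand). The coding parts are printed 5′ to 3′ because they define the included form, and the capitals mark the longest run of bases common to both, 12 nt at positions 4 to 15 from the start of each exon.
Itga6 exon 25: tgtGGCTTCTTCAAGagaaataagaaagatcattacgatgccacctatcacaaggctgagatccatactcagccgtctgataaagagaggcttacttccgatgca
Itga3 exon 25: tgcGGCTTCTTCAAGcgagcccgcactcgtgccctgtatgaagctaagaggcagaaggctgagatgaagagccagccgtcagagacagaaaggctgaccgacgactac

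How far the genes differed in the use of this exon depends on which transcripts are counted. Over all transcripts that span it, those with the exon took 93.4% and 100% of Itga3 TPM. For Itga6 they took 53.1% in replicate 1 and 46.5% in replicate 2, at 33.0 and 22.6 TPM with the exon and 29.2 and 26.0 TPM without it, so the order of the forms turned between the replicates. The full-length coding transcript without the exon, Itga6-202, was listed at 0 in both. Nearly all of the level without it came from Itga6-203, a transcript of 2721 nt with 3 exons that is annotated as processed, at 28.1 and 24.2 TPM. Among coding transcripts alone, Itga6-201 took 94.5% of Itga6 TPM and Itga3-201 took 91.9% of Itga3 TPM, as means of the replicates. Itga3-202, a coding transcript at 0.90 and 0.93 TPM, holds the exon too. With it the Itga3 share stays at the 93.4% and 100% given above. The division for Itga6 therefore rests mostly on the long transcript Itga6-201 and the shorter Itga6-203. On chromosome 2 Itga6-203 ends at 71858416, beyond the end of Itga6-201 at 71856758. How reads were divided between them was not tested.

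The collagen-binding alpha chains were represented by Itga1 and Itga2. Itga1, a chain of mesenchymal cells and vessels, was at 23.8 and 22.9 TPM and Itga2, known from epithelia and platelets, at 5.98 and 5.77 TPM. Their log2 ratio of 1.99 ± 0.00 was nearly the same in both replicates. The genes are neighbours on chromosome 13, 21 kb apart on the same strand. Itga10 and Itga11 stayed below 1 TPM, Itga11 at 0.61 and 0.44 TPM.

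Among the chains that recognise RGD, Itgav was at 63.1 and 60.7 TPM, the fibronectin receptor chain Itga5 at 33.6 and 31.2 TPM, Itga8 as given above, and Itga2b, the alpha chain of the platelet receptor, at 10.1 and 10.2 TPM. In TPM Itgav exceeded Itga5 by 0.93 ± 0.03 on the log2 scale. That order rests on a transcript of 463 nt, Itgav-205, which took 71.5% and 71.8% of Itgav TPM from 14.2% and 13.8% of its expected counts. Itgav over Itga5 was -1.07 ± 0.04 with transcripts of at least 1000 nt and -0.95 ± 0.07 per length of the longest coding transcript. Itga5 has a single transcript in these tables and has the same level by the first of these measures. Itga2b also held 60.4% and 53.4% of its TPM in transcripts under 1000 nt, and its excess over Itgb3 fell from 1.41 ± 0.03 to 0.19 ± 0.14 with long transcripts.

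**Figure D2:**
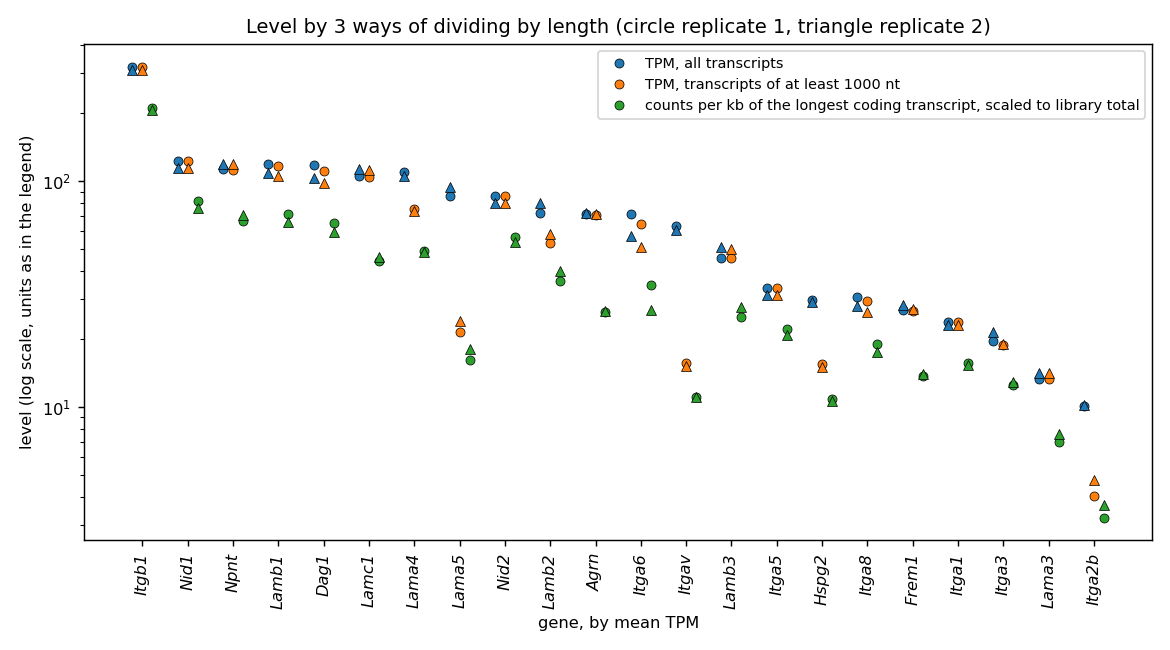
Level on a log axis of 22 genes whose mean reached 10 TPM, by 3 measures: TPM (blue), TPM of transcripts of at least 1000 nt (orange) and expected counts per kb of the longest coding transcript, scaled by the library's total counts (green), circles for replicate 1 and triangles for replicate 2. Lama5, Itgav, Hspg2 and Itga2b drop by more than the distance between the replicates once short transcripts are left out. By the mean of the replicates, Itgb1, Nid1 and Npnt hold the first 3 places by each measure. In replicate 1 alone, Lamb1 lies above Npnt by each measure.

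With a limit of 1000 nt this dependence touched a minority of the members. Of the 23 whose mean reached 10 TPM, 6 had over 20% of their TPM in transcripts under 1000 nt: Lama4, Lama5, Lamb2, Itgav, Hspg2 and Itga2b. That count leaves out large shares of transcripts just above the limit or somewhat longer, such as Lamc1-204 (1447 nt), Agrn-205 (2071 nt) and Itga6-203 (2721 nt). The levels of Lamc1, Agrn and Itga6 are therefore not free of it. Lama5 stood eighth among the 46 in TPM and ranked 18 with long transcripts and 16 per length of the longest coding transcript. Itgav ranked 14 in TPM and 20 by both other measures. The same transcript led in both replicates in 21 of the 23 genes, 4 of which have a single transcript in these tables, and in 18 the leader took at least 50% of the level on average. The leading transcript was annotated as not coding in 3 genes, Lama5, Agrn and Hspg2.

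Other divided genes were split among coding forms. Lama3-201, the long form of 10548 nt, took 56.2% and 58.1% of Lama3 TPM, and the short form Lama3-202, of 5551 nt, the remaining 43.8% and 41.9%. Lamc1-201 took 55.6% and 52.3% of Lamc1, and Lamc1-204, a coding transcript of 1447 nt, 43.2% and 46.5% from 12.2% and 13.7% of the expected counts. Dag1-204 took 48.6% and 54.3% of Dag1. In Itgb4, at a low level, the shares moved with the replicate: Itgb4-202 took 48.8% and 68.2% and Itgb4-204 40.8% and 7.48%. The only Itga7 transcript in these tables was Itga7-201.

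Of the remaining alpha chains Itga4, which binds fibronectin and VCAM1, was at 6.0 and 6.11 TPM and Itga9 at 5.03 and 5.57 TPM. The leukocyte alpha chains were the lowest class, with a summed level of 3.56 and 4.80 TPM over 5 genes. Itgal was at 1.76 and 2.60 TPM, Itgae at 0.52 and 0.56 TPM and Itgax at 0.10 and 0.23 TPM. Itgad had 3 expected counts in replicate 1 and 0 in replicate 2, no more than the 3 counts that a count of 0 allows. For a gene of 2 kb that limit is 0.0574 TPM in replicate 1 and 0.0810 TPM in replicate 2, for counting error only. Itgam, Itgax and Itgad lie side by side on chromosome 7, with gaps of 11.1 and 3.72 kb.

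**Figure D3:**
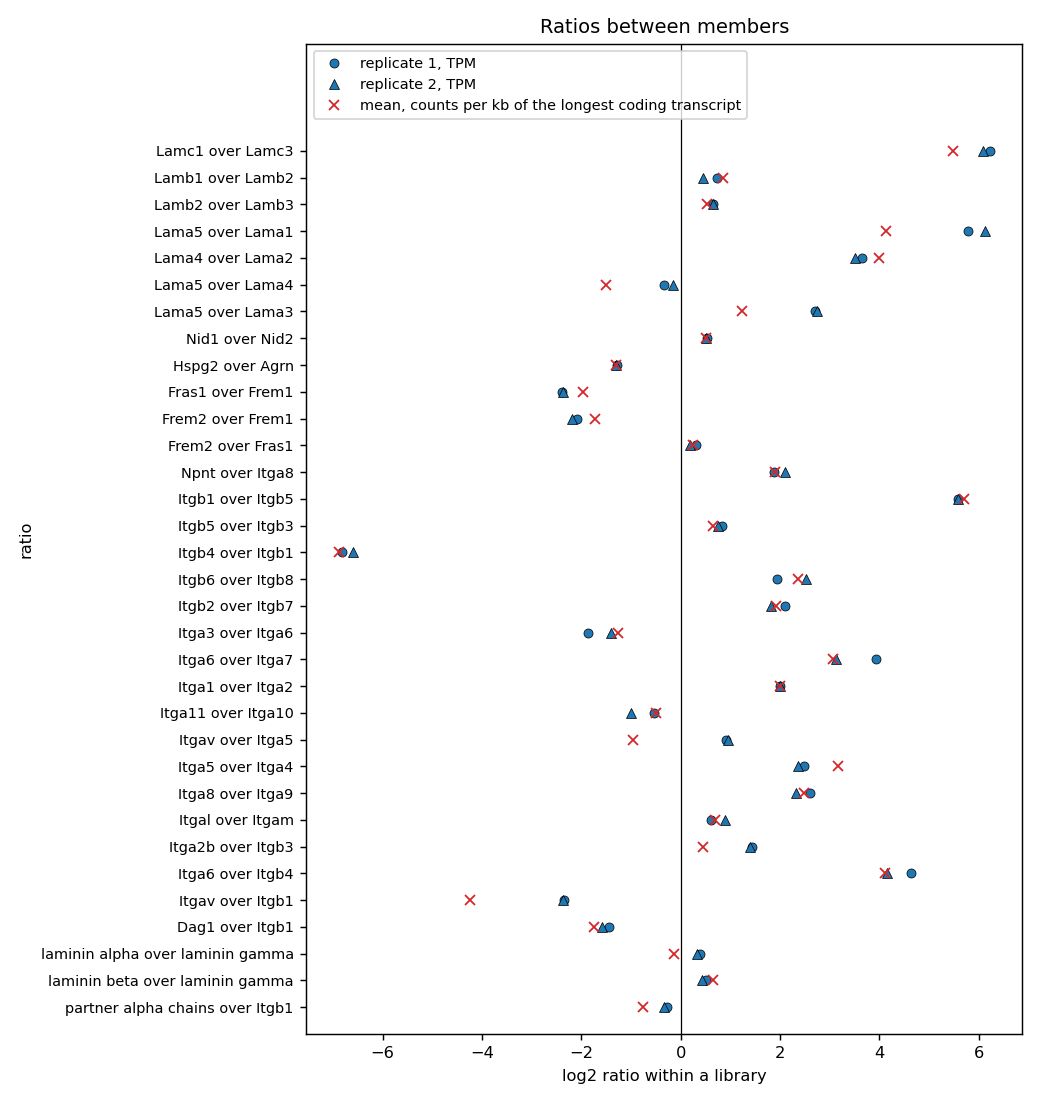
Log2 ratio between pairs of genes, and between summed classes, within replicate 1 (circles) and replicate 2 (triangles) in TPM, with red crosses for the mean of both replicates in counts per kb of the longest coding transcript. Most crosses lie on the same side of 0 as the TPM values, and Itgav over Itga5 and laminin alpha over laminin gamma cross it.

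Over all 34 ratios set, 31 of pairs and 3 of sums, both replicates had the same sign and the mean exceeded 2 SD. This compares each ratio with the spread of 2 libraries and is no test. The sign turned in 2 of the 34 with long transcripts and in the same number per length of the longest coding transcript, in each case for Itgav over Itga5 and for laminin alpha over laminin gamma.

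Genes that work with these members were expressed too. Of the 10 collagens of basement membranes 9 were detected, with Col4a1, a chain of the common type IV network, at 270 and 257 TPM, and Col7a1, of the anchoring fibrils of skin, at 0.64 and 0.44 TPM. All 22 adaptors of integrin adhesions were detected, at a median of 45.1 and 46.1 TPM, from the second talin gene Tln2 at 2.57 and 2.64 TPM to Ilk, the integrin-linked kinase, at 372 and 373 TPM. All 11 other receptors and linkers were detected, and Bcam, a receptor for Lama5, led them at 291 and 317 TPM, with Grip1 the lowest. Of the genes on these lists none passed 2-fold between the replicates.

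Of the 24 genes listed as other ligands of integrins 22 were detected, at a median of 58.3 and 51.0 TPM. Not all are matrix genes, since the list holds the cell surface genes Vcam1, Icam1, Icam2 and Cdh1. Sparc, a collagen-binding matrix protein, was the highest at 2087 and 2068 TPM and Ntn4, a netrin that binds laminin, the lowest at 0.49 and 0.29 TPM. Fn1, the ligand of Itga5, was at 156 and 159 TPM. A pair of ligands passed 2-fold between the replicates in opposite directions. Spp1, the gene of osteopontin, was at 76.2 and 3.79 TPM, a difference of -4.01 on the log2(TPM + 1) scale. Vtn, the gene of the plasma protein vitronectin, which is made in liver, was at 1.29 and 12.2 TPM, a difference of 2.53. The median difference of the liver markers on this scale was 2.98. In TPM itself Vtn was 9.46-fold higher in replicate 2, and the liver markers from 8.35-fold (Apoa2) to 8.72-fold (Alb). The part of liver RNA in the Vtn value was not tested.

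Between the replicates none of the members compared passed 2-fold, which also held for nearly all genes compared. Of the 41 whose mean reached 1 TPM, 0 were 2-fold or more higher in replicate 2, beside 1.01% of 13469 genes coding for protein, and 0 were 2-fold or more lower, beside 0.193%. On the log2(TPM + 1) scale no member passed 1.5-fold either, although Itgb7, a low gene, was 1.71-fold higher in TPM itself. Differences on this scale are taken as replicate 2 less replicate 1, and with 1 library on each side they allow no test. Higher in replicate 2 were 24 members and lower were 17, with a median of 0.04 beside -0.01 over all genes compared. With DESeq2 size factors the division was 20 to 21, so the direction of the set as a whole depends on the scaling.

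**Figure D4:**
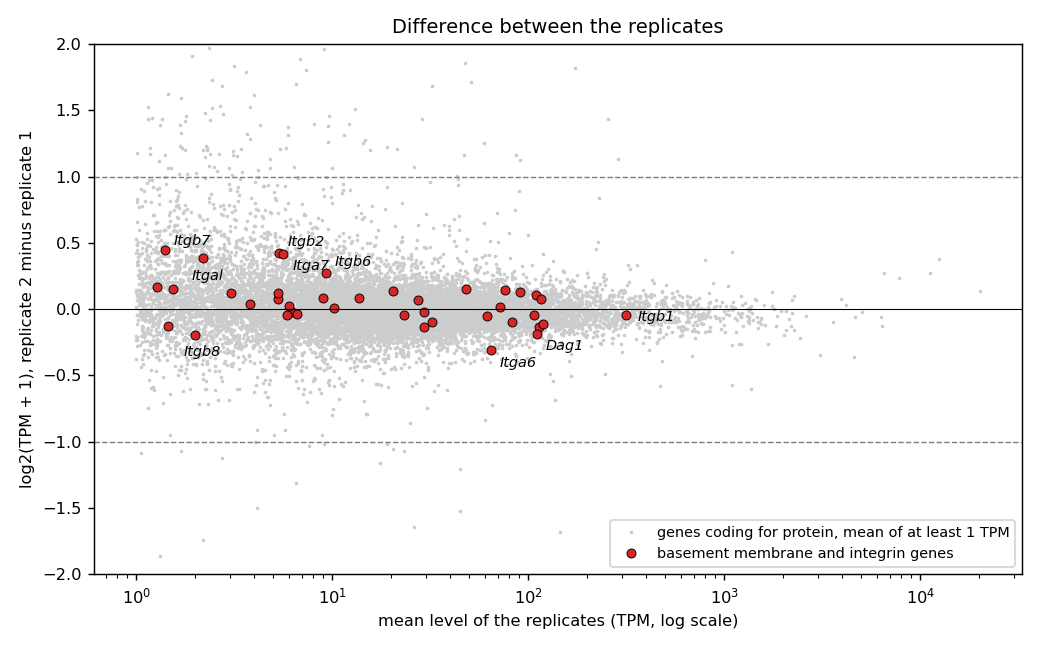
Difference between the replicates on the log2(TPM + 1) scale against the mean level on a log axis, for 40 basement membrane and integrin genes (red) and all genes coding for protein whose mean reached 1 TPM (gray; 48 lie beyond the axis). All red points lie between -0.31 for Itga6 and 0.44 for Itgb7, inside the dashed lines at 2-fold.

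Of the 41 members compared, 6 lay beyond 1 SD of the difference over genes of a like level, near the share of all genes. The SD of the difference over all genes was 0.37 at a mean level of 1 to 10 TPM, 0.21 at 10 to 100 TPM and 0.14 at 100 to 1000 TPM. Over the members it was smaller in each range, at 0.19, 0.13 and 0.11. Beyond 1 SD lay 4 of 18 members in the lowest range, 1 of 16 in the middle and 1 of 7 in the highest, beside 15.8%, 13.4% and 16.5% of all genes. The one in the middle range was Itga6 at -0.31, and the one in the highest was Dag1 at -0.19. For Itga6 the share of counts in replicate 2 was 0.776 times that in replicate 1, with an exact 95% interval of 0.743 to 0.810 that covers counting error only.

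The 4 in the lowest range were the leukocyte chains Itgb7, Itgb2 and Itgal, at 0.44, 0.42 and 0.38, and the muscle chain Itga7 at 0.42, all higher in replicate 2. The share of Itga7 counts was 1.43 times as large in replicate 2, with an interval of 1.25 to 1.62, and that of Itgb7, from 69 and 84 counts, 1.74 times with an interval of 1.25 to 2.43. Of the leukocyte markers, 5 of 6 were higher in replicate 2, with a summed level of 177 and 204 TPM. The pan-leukocyte gene Ptprc was at 3.64 and 5.45 TPM and Coro1a at 35.6 and 49.8 TPM. All 3 T cell markers whose mean reached 1 TPM were higher in replicate 2, among them Cd3g at 5.19 and 13.8 TPM. All 5 skeletal muscle markers were higher too, with Acta1 at 75.8 and 270 TPM. Markers of other muscle did not share this direction: 1 of 4 cardiac and 1 of 4 smooth muscle markers were higher in replicate 2, with median log2 differences of -0.59 and -0.11. A rise in replicate 2 was not particular to leukocyte, T cell and skeletal muscle markers. All markers of alveolar type 1 (4), alveolar type 2 (3), basal (4), mesothelial (3) and erythroid (4) cells were higher too. Their median log2 differences were 0.35, 0.23, 0.76, 0.24 and 0.26, beside 0.17 for leukocyte markers. Of the endothelial markers 1 of 5 and of the epithelial markers 2 of 5 were higher. The part of leukocyte or muscle RNA in the values of these integrins was not tested.

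**Figure D5:**
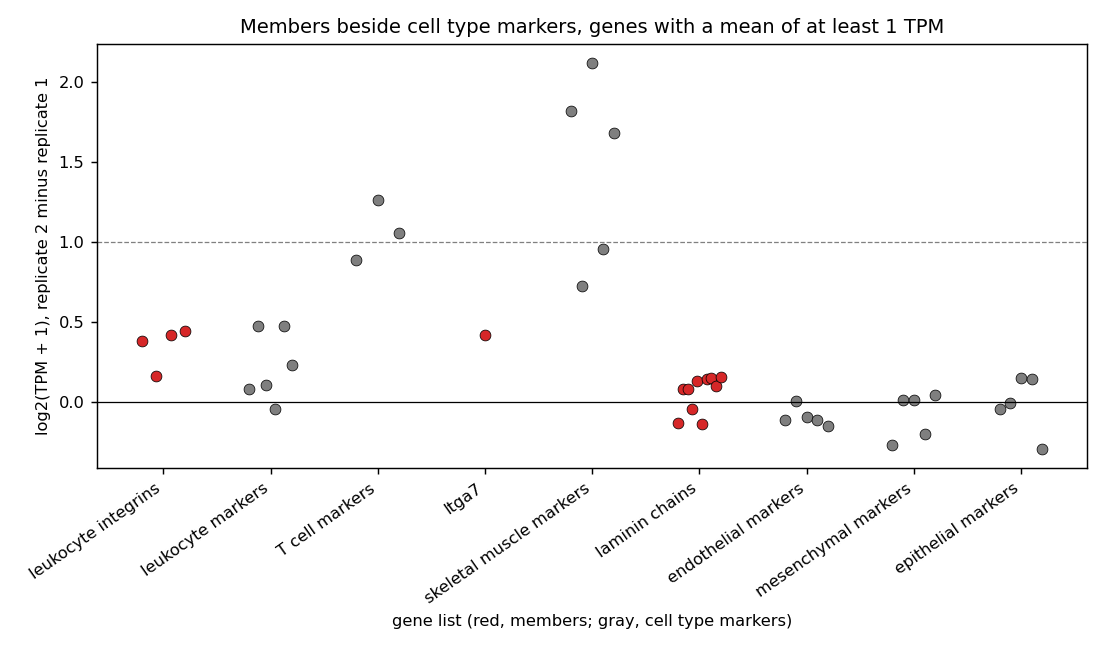
Difference between the replicates on the log2(TPM + 1) scale for members (red) and markers of cell types (gray) whose mean reached 1 TPM, each point 1 gene. The leukocyte integrins and Itga7 lie above 0 as do all T cell and skeletal muscle markers, whereas the laminin chains, from -0.13 to 0.15, lie on both sides of it as do the epithelial and mesenchymal markers. Alveolar, basal, mesothelial and erythroid markers, which were also all higher in replicate 2, are not drawn.

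The deposited credibility bounds, which describe the precision of an estimate within a library, did not overlap between the replicates for 10 of the 41 members compared, beside 17.7% of all genes coding for protein whose mean reached 1 TPM. These were Itgb1, Nid1, Nid2, Lamb1, Dag1, Itga5 and Itga6, lower in replicate 2, and Lamc1, Itga7 and Itgal, higher. Most of these have many counts, so their bounds are narrow: Itgb1 had 31246 and 21449 expected counts and a log2 difference of -0.05. The bounds need not contain the TPM given here. For Itgb1 they were 312 to 319 in replicate 1, beside 322 TPM, and 299 to 307 in replicate 2, beside 312 TPM. The bounds hold no spread between pools.

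Besides Nid2, some members share exon bases with other genes. Gm49368, annotated on the same strand, shares 68.7% of the exon bases of Itgam, and Gm42957 shares 33.5% of those of Itga10. The deposited tables count the transcripts of Gm49368 within Itgam, so the level of Itgam includes them. Itga4 shares 8.04% with Cerkl and Itgb4 7.66% with a long noncoding gene, both on the opposite strand and both below 1 TPM.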

How the data were processed

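Whole lung RNA was measured in 2 libraries by total RNA-seq. A mirVana kit gave the RNA, of which 10 ng over 200 nt went into each library with spike-ins, per the labels' protocols. Per the notes deposited with the files, reads were quantified on mm10 with GENCODE M4. The aligner, the quantifier and the strand setting are not given in the sources used here. The authors deposited expected counts (estimated reads, divided among genes where a read fits several), TPM and FPKM values, each divided by effective length, and score columns that hold the lower and upper credibility bounds of TPM.

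Symbols, coordinates and transcript sequences came from GENCODE M21 of the same build, which matched 42462 of 43346 gene rows. A further 26248 rows with bare numbers as names entered no comparison. A single group of n = 2 allows no test, and whether the pools shared litters is not stated. Means are ± SD, detection was 1 TPM in both replicates, and differences used a pseudocount of 1 and genes whose mean reached 1 TPM. Intervals on count ratios are exact binomial (Clopper-Pearson) at 95%. Both values were given for members whose mean reached 10 TPM and for others where a role called for it, and of the related lists the highest, the lowest and those past 2-fold were named, other genes of these lists having been added after their values were seen. The members, lists and ratios were chosen with earlier results of these data known. Expected counts were rounded for TMM scaling in edgeR 4.0.16 and for size factors in DESeq2 1.42.0 (R 4.3.3), used only as alternatives. Other steps used Python 3.11.15, NumPy 2.4.6, pandas 2.3.3, SciPy 1.17.1 and matplotlib 3.10.9. Some named values of members and listed genes are not reported here, although these genes stay in counts, medians and sums.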

Additional observations from a re-analysis of the deposited data

How the results depend on the processing

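Levels and shares rest on 2 pools, on the annotation and on how reads were divided among transcripts, and the depth limits only the lowest leukocyte chains. The median level of the members, 9.82 TPM, was 10.7 TPM with the posterior mean estimate, 10.9 TPM without spike-in, haemoglobin and bare rows, 7.31 TPM with transcripts of at least 1000 nt and 4.33 with counts per kb of the longest coding transcript, the last being another unit. Both of the latter measures were chosen after seeing the data. With long transcripts the log2 ratios were -0.53 for laminin alpha over gamma, 0.33 for laminin beta over gamma, -0.67 for partner alpha chains over Itgb1 and -1.07 for Itgav over Itga5. Per length of the longest coding transcript they were -0.14, 0.65, -0.75 and -0.95. With raw expected counts, laminin alpha over gamma was 0.13, and the sign turned for Frem2 over Fras1 at -0.12, Itgb5 over Itgb3 at -0.25, Itgav over Itga5 at -0.27 and Itga2b over Itgb3 at -0.31, where genes differ in length. The 0 members past 2-fold stayed 0 under each scaling, pseudocount and filter tried. Each setting kept a filter at a mean of at least 1 TPM or a pseudocount of 1. A gene as low as Itgax, 2.3-fold higher in replicate 2 at 0.10 and 0.23 TPM, could therefore not pass. No paired analysis was possible because there is only 1 group.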
